A study of Mus musculus with 9 samples.

Results

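The TGF-beta, activin and BMP genes Inhba, Inhbb, Grem1, Fst, Bmp2, Bmp4, Id1, Id2, Id3 and Smad7 were followed through 3 treatments of mouse salivary gland cancer stem cells. The 10 genes were chosen by symbol, and their probes were found through the platform's gene symbols. A probe named for 9 of them was among the 16593 genes on the array, and Smad7 was not analysed here. Inhba, Grem1, Fst, Id1 and Id2, 5 of the 10, had a probe that at least 3 of the 9 arrays detected, with a detection p-value under 0.01, as did 7354 genes in all. Detection p-values are the deposited measure of how far a probe's signal stands above the array's negative control beads. Inhbb, Bmp2, Bmp4 and Id3 did not meet that limit and are described by their raw signals.

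The cells came from strain C57BL/6, were taken from primary material and were grown in a medium with serum replacement. They were given LF3, ICG-001 or the solvent DMSO for 24 h, and total RNA of each of 3 samples per treatment was put on an Illumina bead array. The series calls both compounds Wnt inhibitors. As background, LF3 keeps β-catenin from its partner TCF4, and ICG-001 keeps it from the coactivator CBP. Doses are not given in the labels, so the LF3 and ICG-001 groups cannot be set at equal strength. The labels do not say whether the 3 samples of a group were separate cultures, and p-values therefore reflect no more than the variation among these samples, part or all of which could be technical.

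TGF-beta, activins and BMPs are secreted dimers that bind pairs of serine/threonine kinase receptors, and these phosphorylate Smad proteins that enter the nucleus. Activins and TGF-beta signal mainly through Smad2 and Smad3, and BMPs through Smad1, Smad5 and Smad9. Secreted antagonists bind the ligands, and the Id genes are direct BMP targets in many cell types. The pathway takes part in branching of the salivary gland and in the growth and invasion of many carcinomas.

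Against DMSO, the activin subunit gene Inhba and the BMP antagonist gene Grem1 rose under both compounds, and the BMP target Id2 fell under both. Inhba rose 3.68-fold under LF3 and 4.53-fold under ICG-001 on the background-corrected scale, and by less without that correction. Grem1, not detected with DMSO, rose at least 1.83-fold under LF3 and at least 2.75-fold under ICG-001 on the background-corrected scale. Id2 fell 1.7-fold under LF3 and 3.29-fold under ICG-001 on that scale, and by less without the correction. Fst, which encodes the activin-binding protein follistatin, rose 1.4-fold under ICG-001 and did not pass under LF3, and Id1 passed in no comparison.

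The DNA before the transcription start is shown for the 3 genes that passed the test against DMSO under both compounds. Of the 9 genes with a probe, 6 had an entry in the promoter table used (RefSeq, mouse assembly GRCm38.p6). Each sequence is the 250 bases before the start, 5′ to 3′ on the gene's strand, and capitals mark GGCGCC, a Smad1/5 element, and GTCT or its complement AGAC, the short Smad site.
Inhba, chr13:16011601-16011850, plus strand: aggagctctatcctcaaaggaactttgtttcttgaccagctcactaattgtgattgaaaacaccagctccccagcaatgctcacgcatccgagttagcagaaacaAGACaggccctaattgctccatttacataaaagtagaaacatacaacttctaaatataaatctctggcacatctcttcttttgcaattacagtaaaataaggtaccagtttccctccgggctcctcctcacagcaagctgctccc
Grem1, chr2:113758649-113758898, minus strand: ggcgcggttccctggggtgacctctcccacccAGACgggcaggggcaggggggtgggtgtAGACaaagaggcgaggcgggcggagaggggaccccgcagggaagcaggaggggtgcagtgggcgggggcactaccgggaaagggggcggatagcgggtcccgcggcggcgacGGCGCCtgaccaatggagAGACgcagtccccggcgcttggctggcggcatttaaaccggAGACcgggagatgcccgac
Id2, chr12:25096093-25096342, minus strand: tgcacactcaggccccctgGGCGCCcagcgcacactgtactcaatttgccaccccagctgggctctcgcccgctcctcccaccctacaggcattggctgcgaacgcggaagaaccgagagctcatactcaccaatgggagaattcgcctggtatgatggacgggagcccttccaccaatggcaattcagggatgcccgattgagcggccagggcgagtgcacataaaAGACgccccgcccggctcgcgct
The Grem1 sequence held GGCGCC once, beginning 78 bases before the start, and the Id2 sequence once, beginning 231 bases before the start, whereas the Inhba sequence held none. Short Smad sites numbered 4 in the Grem1 sequence, 1 in that of Inhba and 1 in that of Id2. The 3 sequences differed in base composition, with 72.0% G and C for Grem1, 62.8% for Id2 and 43.2% for Inhba, against a median of 52.4% over all promoter windows. Both strands were searched over 250 bases in all 32851 windows of the table, of which 9.59% held GGCGCC and 82.9% held GTCT. The full Smad binding element GTCTAGAC, which contains 2 short sites, was in 0.167% of windows and the TCF motif CTTTGAT in 3.21%, and neither was in the windows of the 6 genes. The E-box CACGTG was in 6.02% of windows and, among the 6, in that of Bmp4. These matches describe letters in a window and were not tested against the treatments.

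Mean deposited signal was 340.0 to 396.5 with LF3, 368.3 to 409.4 with ICG-001 and 398.2 to 467.3 with DMSO, and 38.7% to 42.4% of the 25697 probes were detected per array. After normalization, the SD of an array's residuals over all kept probes was 0.124 to 0.193 on the log2 scale, highest for LF3 replicate 3 and DMSO replicate 1. Of 11 stem cell markers on the array, Cd44, Aldh3a1, Klf4, Sox2 and Itgb1 were detected on all 9 arrays, and Cd24a, Aldh1a1, Prom1 and Lgr5 on none. The summed deposited signal of these 11 genes was 18127.5 to 22070 with LF3, 9146.2 to 11882.6 with ICG-001 and 21235.1 to 22530.6 with DMSO. That sum follows Aldh3a1, which fell by 1.09 on the log2 scale under ICG-001 (adjusted p = 8.65e-06), whereas Cd44, Klf4 and Itga6 rose by 0.54, 0.81 and 0.44 (adjusted p = 0.0019, 0.000245 and 0.0456). Itga6 was detected on 5 of the 9 arrays, near the lowest detected values. Under LF3, Sox9 alone of this list passed, with a rise of 0.51 (limma adjusted p = 0.0188). Of 10 acinar markers 2 were detected on all arrays and 8 on none, and of 9 ductal markers 1 on all and 6 on none. In bulk RNA, fewer cells of a type and less RNA per cell cannot be told apart.

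Inhba encodes the βA subunit, whose homodimer is activin A. Its normalized log2 intensities were 7.66, 7.76 and 7.23 with LF3, 8.04, 7.61 and 7.91 with ICG-001, and 5.63, 5.82 and 5.57 with DMSO. All 6 arrays of treated cells were above all 3 DMSO arrays, and the ranges of LF3 and ICG-001 overlapped. In the deposited linear signals this was 153.9 to 234.1 with LF3, 247.6 to 306.1 with ICG-001 and 93.6 to 96.3 with DMSO. The lowest signals of any detected probe on the DMSO arrays were 75.6, 74.1 and 87.7, not far below those of Inhba. The mean was 7.55 ± 0.29 with LF3, 7.85 ± 0.22 with ICG-001 and 5.67 ± 0.13 with DMSO (log2, SD, n = 3 each).

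The LF3 minus DMSO difference of Inhba was 1.88 on the log2 scale (SE 0.16, 95% interval 1.54 to 2.22, limma adjusted p = 6.04e-06). The ICG-001 minus DMSO difference was 2.18 (SE 0.16, interval 1.84 to 2.51, adjusted p = 3.64e-07). LF3 minus ICG-001 was -0.30 (SE 0.16, interval -0.64 to 0.04, adjusted p = 0.146), so the order of the compounds was not separated beyond the spread between arrays. That last difference was -0.50 with an adjusted p of 0.0262 when arrays were scaled to a common median in place of quantile normalization. In these tests, p-values were adjusted over all 10830 kept probes, and the threshold on the adjusted p was 0.05. Both comparisons with DMSO use the same 3 DMSO arrays. Without the background correction the Inhba differences from DMSO were 1.36 for LF3 and 1.61 for ICG-001.

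**Figure D1:**
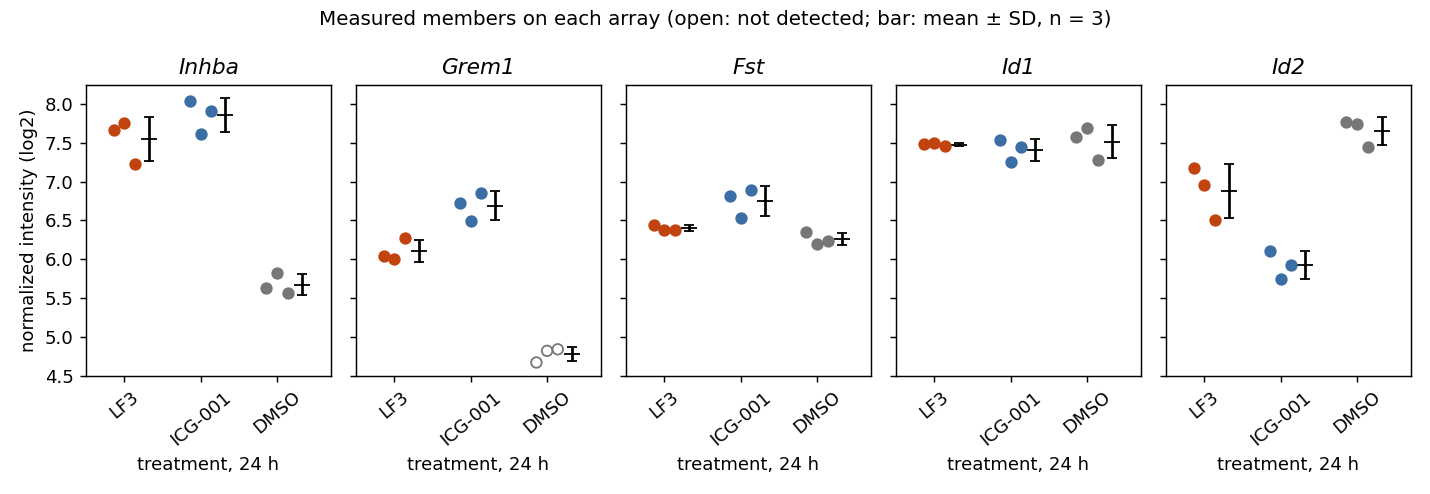
Normalized log2 intensity (vertical axis) of the 5 measured genes on each of the 9 arrays, by treatment (LF3, ICG-001, DMSO); filled points were detected, open points were not, and the black bar beside each group is the mean ± SD of its 3 arrays. Inhba and Grem1 lie higher and Id2 lower on all 6 arrays of treated cells than on the 3 DMSO arrays, while the Id1 groups overlap.

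Inhbb, the gene of the βB subunit of activins, gave only background signal. Its deposited signals were 50.9, 54.7 and 63.5 with LF3, 57.5, 55.7 and 53.5 with ICG-001, and 50.9, 51.0 and 56.0 with DMSO. It was detected on 0 of the 9 arrays, where the lowest signal of any detected probe was 71.5 to 87.7. With no filter on dim probes, its differences were 0.17 for LF3 and 0.13 for ICG-001 against DMSO, with adjusted p = 0.376 and 0.499 over 25697 probes. Of this pair of activin subunit genes, Inhba was the one measured above background.

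The BMP ligand genes Bmp2 and Bmp4 were likewise below detection on all 9 arrays. The signals of Bmp2 were 54.2, 56.0 and 52.5 with LF3, 59.3, 53.8 and 57.1 with ICG-001, and 47.4, 49.0 and 54.5 with DMSO. Those of Bmp4 were 51.7, 40.9 and 50.7 with LF3, 46.1, 42.8 and 46.3 with ICG-001, and 49.5, 48.1 and 46.1 with DMSO. The groups of both genes overlapped, and a level near background limits what these probes can show rather than showing that the transcript was absent. With no filter, the nearest to the threshold was Bmp2 under ICG-001, at 0.22 above DMSO (adjusted p = 0.105).

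Grem1 encodes gremlin, a secreted protein that binds BMP2 and BMP4 and keeps them from their receptors. Its normalized log2 intensities were 6.04, 6.00 and 6.27 with LF3, 6.73, 6.49 and 6.85 with ICG-001, and 4.67, 4.82 and 4.84 with DMSO. The 3 groups did not overlap, with ICG-001 highest and DMSO lowest. It was detected on all 6 arrays of treated cells and on no DMSO array (detection p-values 0.0564 to 0.11), so it met the detection limit only through the treated groups.

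The mean level of Grem1 was 6.10 ± 0.14 with LF3, 6.69 ± 0.18 with ICG-001 and 4.77 ± 0.09 with DMSO (log2, SD, n = 3 each). Because DMSO cells gave only a bound, the folds against them were computed from the lowest detected signal of each DMSO array. On the background-corrected scale the rise was at least 1.83-fold under LF3 (adjusted p = 2.06e-05) and at least 2.75-fold under ICG-001 (adjusted p = 2.04e-07). The fitted log2 differences were 1.33 and 1.92 (SE 0.13 each). Without the background correction, where both groups keep their background signal, they were 0.75 and 1.16, which are smaller folds than those bounds, so the bounds hold for the corrected scale and not for the raw signals. Between the compounds, where both groups were detected, LF3 minus ICG-001 was -0.59 (SE 0.13, interval -0.86 to -0.31, 1.5-fold, adjusted p = 0.00273). Grem1 was thus lower with LF3 than with ICG-001 beyond the spread between arrays.

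Fst encodes follistatin, which binds activin with high affinity and blocks it. Its normalized log2 intensities were 6.44, 6.38 and 6.38 with LF3, 6.82, 6.53 and 6.89 with ICG-001, and 6.35, 6.19 and 6.24 with DMSO. All 3 ICG-001 arrays were above the other 6, and each LF3 array was above each DMSO array by a narrow margin. The mean was 6.40 ± 0.04 with LF3, 6.75 ± 0.19 with ICG-001 and 6.26 ± 0.08 with DMSO (log2, SD, n = 3 each).

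The ICG-001 minus DMSO difference of Fst was 0.48 (SE 0.12, interval 0.22 to 0.75, 1.4-fold, adjusted p = 0.0067). It lost the call under median scaling, at 0.39 with an adjusted p of 0.0596. The LF3 minus DMSO difference was 0.14 (interval -0.12 to 0.40, adjusted p = 0.444) and turned to -0.10 under median scaling, so no direction is given for it. LF3 minus ICG-001 was -0.34 (SE 0.12, interval -0.61 to -0.08, adjusted p = 0.0375), a call that was lost in 9 of 21 alternative settings with adjusted p up to 0.15. Those 9 included leaving out any 1 of the LF3 replicates 1, 2 or 3 (0.0617, 0.0851 and 0.067) or the ICG-001 replicates 1 or 3 (0.114 and 0.15).

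**Figure D2:**
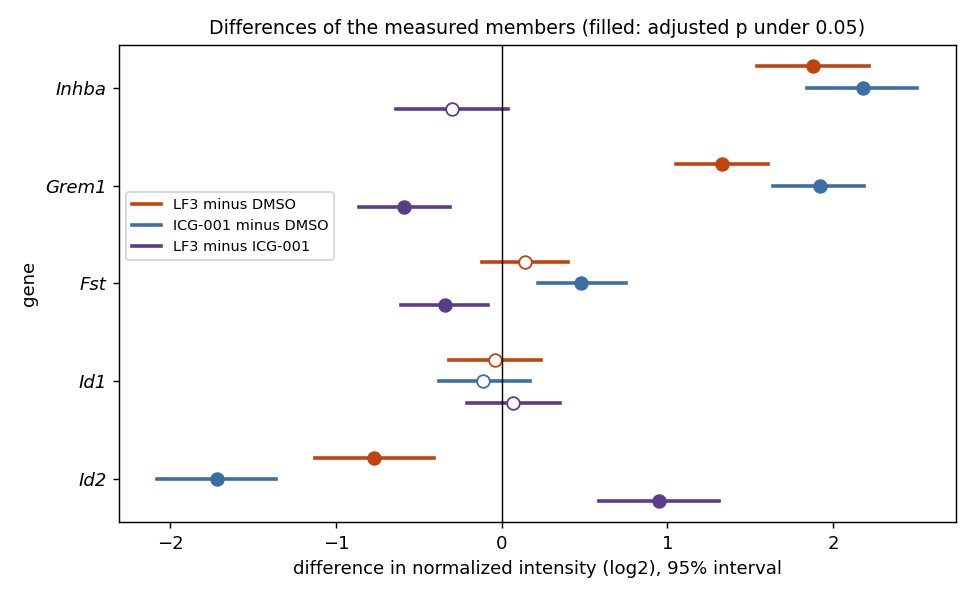
Fitted difference in normalized log2 intensity (horizontal axis) with its 95% interval for the 5 measured genes, for LF3 minus DMSO, ICG-001 minus DMSO and LF3 minus ICG-001; filled points have an adjusted p under 0.05. Inhba and Grem1 lie to the right of 0 against DMSO and Id2 to the left, all Id1 intervals cross 0, and the Grem1 differences from DMSO rest on DMSO arrays where the probe was not detected.

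The Id genes encode helix-loop-helix proteins without a DNA-binding region, which hold back the basic helix-loop-helix factors of differentiation. Of the Id genes that met the detection limit, Id2 was the one that passed. Its normalized log2 intensities were 7.18, 6.95 and 6.50 with LF3, 6.11, 5.75 and 5.93 with ICG-001, and 7.77, 7.74 and 7.44 with DMSO. The 3 groups did not overlap, with DMSO highest, LF3 between and ICG-001 lowest. The mean was 6.88 ± 0.34 with LF3, 5.93 ± 0.18 with ICG-001 and 7.65 ± 0.18 with DMSO (log2, SD, n = 3 each).

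Id2 fell by 0.77 on the log2 scale under LF3 against DMSO (SE 0.17, interval -1.13 to -0.41, adjusted p = 0.00583). Under ICG-001 it fell by 1.72 against DMSO (SE 0.17, interval -2.08 to -1.36, adjusted p = 4.19e-06). LF3 minus ICG-001 was 0.95 (SE 0.17, interval 0.59 to 1.31, 1.93-fold, adjusted p = 0.00062), so the level was lower with ICG-001 than with LF3. In linear signals the probe gave 110.5 to 177.5 with LF3, 91.9 to 105.8 with ICG-001 and 257.1 to 290.2 with DMSO. Without the background correction its differences from DMSO were -0.62 for LF3 and -1.28 for ICG-001. A second Id2 probe was dim, with signals of 57.2 to 66.9, 54.6 to 69.6 and 70.9 to 85.3 in the LF3, ICG-001 and DMSO groups, and was detected on 1 array, DMSO replicate 1. Its differences from DMSO without the filter were -0.42 for LF3 and -0.29 for ICG-001 (adjusted p = 0.252 and 0.424).

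Id1 was measured well above background and did not pass in any comparison. Its normalized log2 intensities were 7.48, 7.49 and 7.46 with LF3, 7.53, 7.25 and 7.44 with ICG-001, and 7.57, 7.69 and 7.28 with DMSO. The 3 groups overlapped. The mean was 7.48 ± 0.01 with LF3, 7.41 ± 0.14 with ICG-001 and 7.52 ± 0.21 with DMSO (log2, SD, n = 3 each). The interval of the difference ran from -0.32 to 0.24 for LF3 minus DMSO (adjusted p = 0.86), from -0.38 to 0.17 for ICG-001 minus DMSO (adjusted p = 0.543) and from -0.21 to 0.35 for LF3 minus ICG-001 (adjusted p = 0.71). The intervals of Id1 against DMSO did not reach the differences fitted for Id2 under the same compound. In deposited linear signals, not normalized between arrays, Id1 was 173.1 to 209.3 with LF3, 198.9 to 226.5 with ICG-001 and 234.9 to 257.7 with DMSO. Under median scaling its differences from DMSO were -0.33 for LF3 and -0.20 for ICG-001 (limma adjusted p = 0.104 and 0.35).

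Id3 lay at the edge of detection. Its deposited signals were 57.0, 54.4 and 65.0 with LF3, 74.6, 58.2 and 44.3 with ICG-001, and 96.9, 69.1 and 79.3 with DMSO. It was detected on ICG-001 replicate 1 and DMSO replicate 1 only. The LF3 and DMSO signals did not overlap and those of ICG-001 and DMSO did. With no filter, its differences from DMSO were -0.60 for LF3 and -0.55 for ICG-001 (adjusted p = 0.208 and 0.216), so Id3 passed neither.

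**Figure D3:**
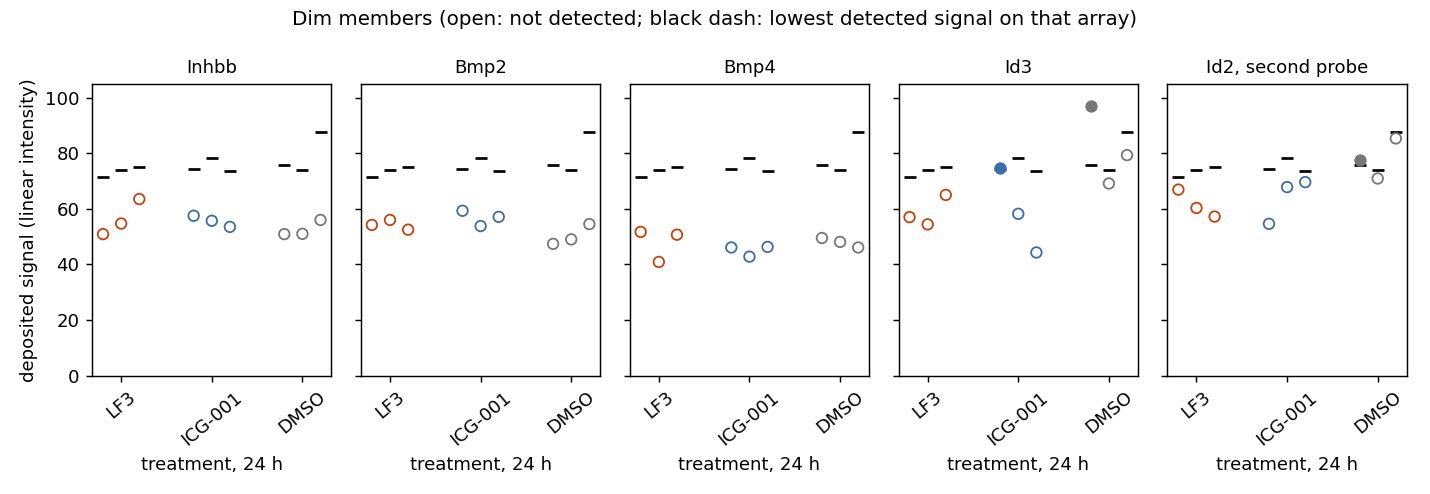
Deposited linear signal (vertical axis) of the genes near background and of the second Id2 probe on each of the 9 arrays, by treatment (LF3, ICG-001, DMSO); filled points were detected, open points were not, and each black dash is the lowest signal of any detected probe on that array. Inhbb, Bmp2 and Bmp4 lie under the dashes on all 9 arrays, and Id3 reaches them on ICG-001 replicate 1 and DMSO replicate 1.

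Of the 5 measured genes, 3 passed for LF3 minus DMSO, 2 higher and 1 lower. Over all 7354 genes tested, 11% were called higher and 11.4% lower in that comparison. For ICG-001 minus DMSO 4 of the 5 passed, 3 higher and 1 lower, against 18.8% of all genes called higher and 18.9% lower. For LF3 minus ICG-001 3 of the 5 passed, Id2 higher with LF3 and Grem1 and Fst lower, against 20.2% of all genes called higher and 19.5% lower. Grem1 reached the test only through the groups in which it was high, and the 5 genes are not all of the 10, so these counts are given as a description.

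The calls of Inhba, Grem1 and Id2 against DMSO were made under all 21 alternative settings in which each could be tested (20 for Grem1). The differences ranged from 1.36 to 2.05 for Inhba under LF3 and from 1.61 to 2.29 under ICG-001. For Id2 they ranged from -1.04 to -0.58 under LF3 and from -1.84 to -1.28 under ICG-001. Grem1 ranged from 0.75 to 1.41 under LF3 and from 1.16 to 2.03 under ICG-001.

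**Figure D4:**
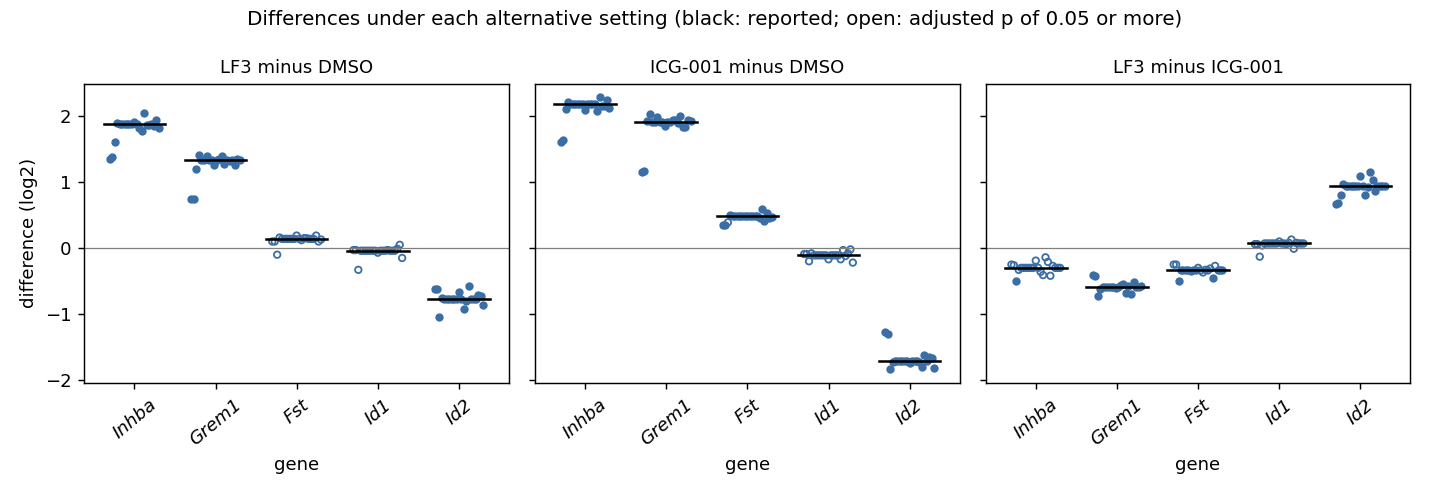
Fitted log2 difference (vertical axis) of the 5 measured genes under each alternative setting, in 3 panels for LF3 minus DMSO, ICG-001 minus DMSO and LF3 minus ICG-001; each point is 1 setting, filled where its adjusted p was under 0.05, and the black line is the reported value. The points of Inhba, Grem1 and Id2 against DMSO are all filled and on 1 side of 0, and those of Fst for LF3 minus ICG-001 are partly open.

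Other genes of the pathway, 122 symbols in 5 lists that leave out the 10, were read in the same fits. A few genes were listed under both an older and a newer symbol, such as Ctgf and Ccn2. Of these 108 had a probe, 62 of the 108 were detected on no array and 42 were tested. Under LF3, 3 of the 42 rose and 6 fell against DMSO, beside 11% and 11.4% of all 7354 genes. Under ICG-001, 11 rose and 10 fell, beside 18.8% and 18.9% of all genes. LF3 minus ICG-001 had 6 called higher and 7 lower, beside 20.2% and 19.5%. The counts of the 5 lists are small and are given as a description, with nothing read from them as particular to a list. Without DMSO replicate 2 the LF3 count was 5 in place of 9, beside 872 of all 7295 genes. Leaving out DMSO replicate 1 gave 14, beside 1877 of all 7275 genes. With median scaling the LF3 count was 21, 2 higher and 19 lower, beside 203 higher and 2140 lower of all 7354 genes. The median of all genes moved by -0.24 in that setting.

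Ligand genes were mostly not detected, at 22 of 26 on the array, and 3 were tested. Tgfb1 averaged 7.47 ± 0.28 with LF3 and 7.44 ± 0.13 with DMSO (log2, SD, n = 3 each) and passed in no comparison with DMSO. Tgfb3 was 5.22, 4.57 and 5.01 with LF3 and 5.27, 5.49 and 5.37 with DMSO, a difference of -0.44 (adjusted p = 0.0491) from groups that did not overlap. Only 1 LF3 array detected Tgfb3, and the call was lost in 14 of 20 alternative settings, among them leaving out any array other than LF3 replicate 1 or DMSO replicate 1 (adjusted p up to 0.199). Under ICG-001 its difference from DMSO was -0.02 (adjusted p = 0.926). The ligand list had medians of 0.03 for LF3 and 0.09 for ICG-001 against DMSO, beside 0.01 and 0 over all genes.

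Of 11 receptor and coreceptor genes tested, 3 fell under LF3 and none rose, and under ICG-001 5 fell and 2 rose. Of all genes, 11.4% fell and 11% rose under LF3, and 18.9% fell and 18.8% rose under ICG-001. At an unadjusted limma p under 0.05, LF3 had 2 higher and 6 lower, beside 2650 of all 7354 genes in either direction. The list medians were -0.33 for LF3 and -0.21 for ICG-001. Tgfbr1, the type I receptor of TGF-beta, was 9.04, 8.82 and 8.51 with LF3 and 9.20, 9.54 and 9.68 with DMSO. It fell by 0.68 under LF3 (SE 0.16, adjusted p = 0.00772), whereas its ICG-001 minus DMSO difference was -0.14 (adjusted p = 0.497). LF3 minus ICG-001 was itself -0.54 for Tgfbr1 (adjusted p = 0.0146), a call lost without LF3 replicate 3 or ICG-001 replicate 2 (adjusted p up to 0.0617). A second Tgfbr1 probe was detected on no LF3 array and gives only a bound, at least 1.07-fold lower with LF3 than with DMSO (adjusted p = 0.0323).

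Tgfbr3, the coreceptor betaglycan that presents TGF-beta and binds inhibin, was 6.76, 6.80 and 6.56 with ICG-001 and 7.28, 7.69 and 7.97 with DMSO. It fell by 0.94 (SE 0.18, adjusted p = 0.000998), and its second probe fell by 0.62 (adjusted p = 0.00744). Rgmb, a BMP coreceptor, was detected on no ICG-001 array and fell under ICG-001 against DMSO (adjusted p = 0.000412), by at least 1.52-fold on the background-corrected scale. Without that correction the log2 difference of Rgmb was -0.48, a smaller fold. Eng, the coreceptor endoglin, was at least 1.17-fold lower with ICG-001 on the corrected scale (adjusted p = 0.00352). Neither Tgfbr3, Rgmb nor Eng passed under LF3, with differences from DMSO of -0.30, -0.33 and -0.37 (adjusted p = 0.241, 0.12 and 0.11).

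Bmpr1a, a type I BMP receptor, averaged 8.86 ± 0.27 with LF3, 8.67 ± 0.09 with ICG-001 and 9.29 ± 0.19 with DMSO (log2, SD, n = 3 each). It fell by 0.62 under ICG-001 (adjusted p = 0.00479). Its fall of 0.43 under LF3 (adjusted p = 0.0498) was lost in 15 of 21 settings, among them leaving out any array other than LF3 replicate 1 (adjusted p up to 0.169). A second Bmpr1a probe gave -0.10 and -0.15 and passed neither (adjusted p = 0.615 and 0.368), so the probes disagree. Amhr2, the type II receptor of anti-Müllerian hormone, was 0.52 below DMSO under each compound (adjusted p = 0.015 for LF3 and 0.00814 for ICG-001). Both Amhr2 calls were lost when its probes were averaged, that of LF3 also without LF3 replicate 2, DMSO replicate 2 or DMSO replicate 3 (adjusted p up to 0.201), and its second probe passed neither (adjusted p = 0.798 and 0.867).

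Among 8 antagonist and ligand-processing genes tested, 1 rose and none fell under LF3, and 3 rose and 3 fell under ICG-001, beside array-wide shares of 11% and 11.4% for LF3 and of 18.8% and 18.9% for ICG-001. By the unadjusted limma p, 1 was higher and 1 lower under LF3, beside 2650 of all 7354 genes in either direction. The list medians were -0.02 for LF3 and -0.05 for ICG-001. Ltbp4, a latent TGF-beta binding protein of the matrix, was 8.45, 8.61 and 8.63 with LF3, 8.64, 8.52 and 8.42 with ICG-001, and 7.94, 7.55 and 7.44 with DMSO. It rose by 0.91 under LF3 (adjusted p = 0.000635) and by 0.88 under ICG-001 (adjusted p = 0.000261). Its other probes gave 0.40 and -0.09 for LF3 (adjusted p = 0.0771 and 0.77) and 0.69 and 0.09 for ICG-001 (adjusted p = 0.003 and 0.761), so the LF3 call rests on 1 of 3 probes.

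Nbl1, the BMP antagonist DAN, was 8.30, 8.38 and 8.32 with LF3, 9.14, 9.15 and 9.40 with ICG-001, and 8.06, 8.25 and 8.27 with DMSO. It rose 2.05-fold under ICG-001 (log2 1.04, SE 0.12, adjusted p = 1.7e-05) and did not pass under LF3 (0.14, adjusted p = 0.432). The difference between the compounds, LF3 minus ICG-001, was -0.90 (adjusted p = 7.13e-05). Ltbp1, another latent TGF-beta binding protein, rose by 0.95 under ICG-001 (adjusted p = 0.000405), with an LF3 minus DMSO difference of 0.14 (adjusted p = 0.571) and LF3 minus ICG-001 at -0.81 (adjusted p = 0.0013). Nbl1 and Ltbp1, like Grem1, were thus lower with LF3 than with ICG-001. Bmp1 and Twsg1 of the same list went the other way, at 0.67 and 0.46 (limma adjusted p = 0.000445 and 0.0248). The list thus had 2 called higher and 2 lower for LF3 minus ICG-001, beside 20.2% and 19.5% of all genes.

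Of 14 Smads and intracellular regulators tested, 2 rose and 1 fell under LF3, and 5 rose and 1 fell under ICG-001, with list medians of 0.14 and 0.29. The shares of all genes that rose and fell were 11% and 11.4% for LF3, and 18.8% and 18.9% for ICG-001. Smurf1, an E3 ubiquitin ligase that targets BMP Smads and receptors, was 6.79, 7.18 and 7.04 with LF3, 6.53, 6.61 and 6.70 with ICG-001, and 5.71, 5.70 and 5.49 with DMSO. It rose 2.58-fold under LF3 (log2 1.37, SE 0.13, adjusted p = 1.66e-05) and 1.97-fold under ICG-001 (0.98, SE 0.13, adjusted p = 5.72e-05). Those folds are on the background-corrected scale, and without the correction the log2 differences were 0.93 and 0.64. All 6 arrays of treated cells were above the 3 DMSO arrays.

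Smad3, a transducer of activin and TGF-beta signals, averaged 6.32 ± 0.22 with LF3, 6.54 ± 0.27 with ICG-001 and 7.14 ± 0.28 with DMSO (log2, SD, n = 3 each). It fell by 0.82 under LF3 (adjusted p = 0.00445) and by 0.61 under ICG-001 (adjusted p = 0.0131), where 1 ICG-001 array overlapped the DMSO range. The ICG-001 call was lost in 4 of 21 settings, among them leaving out ICG-001 replicate 1, DMSO replicate 2 or DMSO replicate 3 (adjusted p up to 0.0622). Smad2, its close relative, rose by 0.46 under ICG-001 (adjusted p = 0.00858, lost under median scaling at 0.0938) and was 0.23 above DMSO with LF3 (adjusted p = 0.2).

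Tgif1, a corepressor of Smad-driven transcription, rose by 0.52 under LF3 (adjusted p = 0.013) and by 0.47 under ICG-001 (adjusted p = 0.0122). Both calls were lost under median scaling and without DMSO replicate 2, and that of ICG-001 also without ICG-001 replicate 2 (adjusted p up to 0.307 and 0.105). The other 2 Tgif1 probes passed under each compound, with rises of 0.62 and 0.87 for LF3 and of 1.05 and 1.17 for ICG-001, the larger of each pair from a probe that 1 DMSO array detected. Ppm1a, a phosphatase of Smad2 and Smad3, rose by 0.52 under ICG-001 (adjusted p = 0.00245). One of its other probes rose too (0.62, adjusted p = 0.00199) and 1 did not pass (0.25, adjusted p = 0.299).

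Of 6 further target genes tested, none rose and 1 fell under LF3, and 1 rose and 1 fell under ICG-001, again beside 11% higher and 11.4% lower of all genes for LF3 and 18.8% and 18.9% for ICG-001. By the unadjusted limma p, 0 were higher and 1 lower under LF3, beside 2650 of all 7354 genes in either direction. The list medians were -0.05 for LF3 and -0.15 for ICG-001. Tsc22d1, a TGF-beta-induced transcription regulator, was 9.75, 9.87 and 10.19 with LF3 and 10.76, 10.67 and 10.51 with DMSO. It fell by 0.71 under LF3 (SE 0.14, adjusted p = 0.00303) and was 0.25 below DMSO with ICG-001 (adjusted p = 0.177). Msx1, a homeobox gene induced by BMPs, was 5.60, 5.59 and 5.55 with ICG-001 and 6.17, 6.11 and 6.01 with DMSO. It fell by 0.52 under ICG-001 (SE 0.12, adjusted p = 0.00342) and was 0.17 above DMSO with LF3 (adjusted p = 0.332).

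Cdkn1a, the gene of the cell cycle inhibitor p21, rose by 0.54 under ICG-001 (adjusted p = 0.0132), a call lost without DMSO replicate 2 or DMSO replicate 3 (adjusted p up to 0.0608). Its other 2 probes rose as well, by 0.61 and 0.56 (adjusted p = 0.00645 and 0.0138). The 3 probes of Cdkn1a did not pass under LF3 (differences of 0.15, 0.11 and -0.04, adjusted p = 0.529, 0.638 and 0.889). Msx1 differed between the compounds, with LF3 minus ICG-001 at 0.68 (adjusted p = 0.000489).

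**Figure D5:**
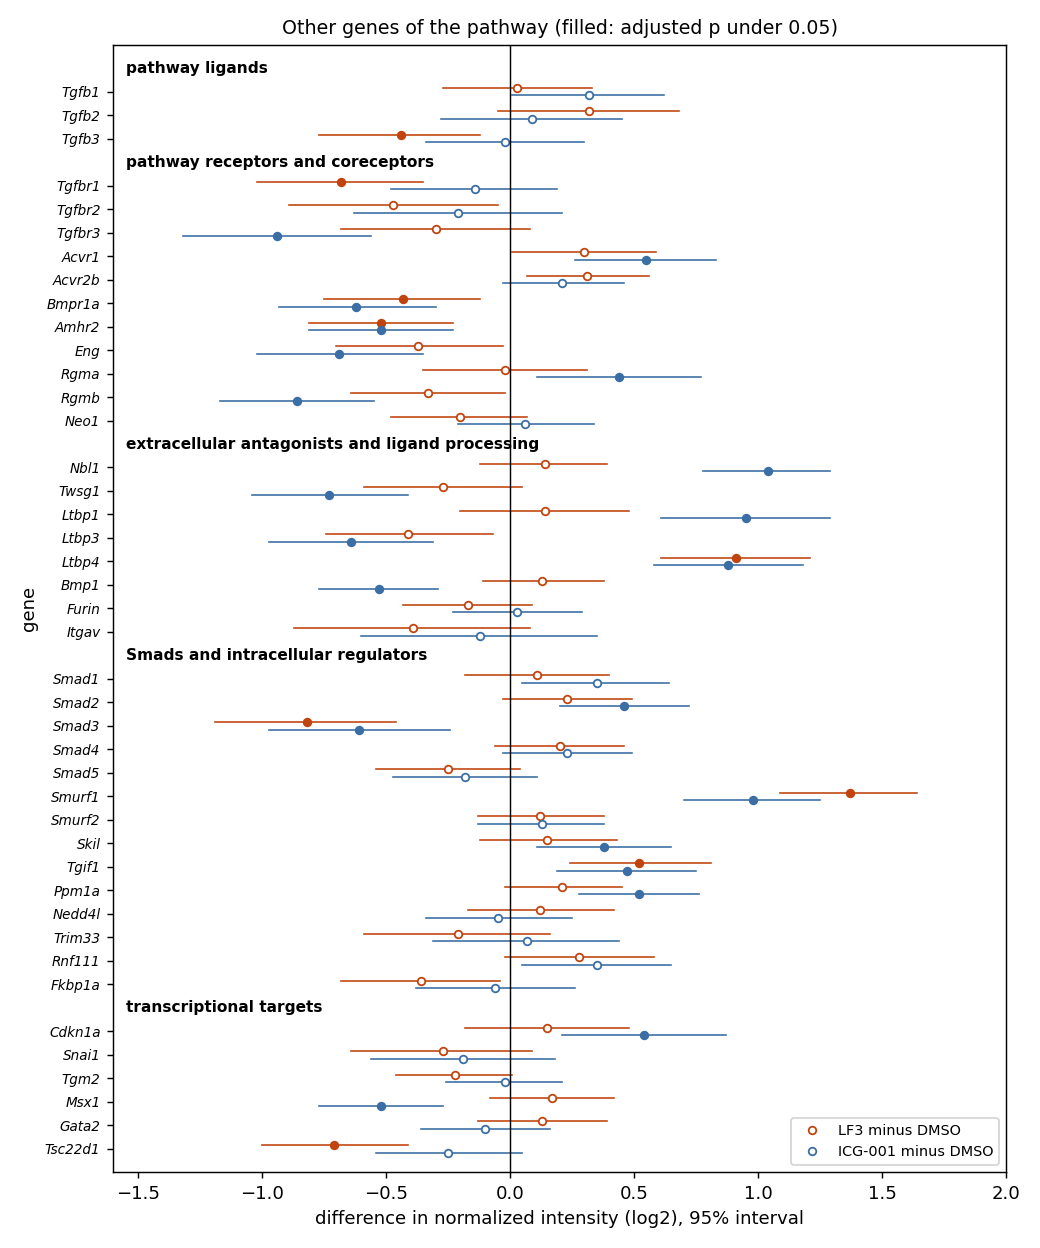
Log2 difference from DMSO with its 95% interval (horizontal axis) for the 42 tested genes of the 5 pathway lists, LF3 and ICG-001 each; filled points have an adjusted p under 0.05. Smurf1 and Ltbp4 lie to the right and Smad3 to the left under both compounds, and Nbl1 and Ltbp1 are filled under ICG-001 only.

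Some markers of other cell types differed between the treatments too. The basal marker Mylk and the endothelial marker Tie1 passed as lower under LF3 (limma adjusted p = 0.0344 and 0.025). They also passed as lower under ICG-001 (0.00274 and 5.87e-05), and the other markers of both lists were detected on no array. Mylk was detected on all 9 arrays but Tie1 on 3, with means of 5.07 with LF3, 4.59 with ICG-001 and 5.47 with DMSO (log2). The LF3 and ICG-001 means of Tie1 lay under the lowest detected value of every array, so its falls are limited by signal. Of the acinar markers, Aqp5 fell by 0.72 and Slc12a2 rose by 0.38 under ICG-001 (adjusted p = 0.000401 and 0.028). Of 12 fibroblast and mesenchymal markers on the array, Vim, Pdgfra and Twist1 were detected on all arrays, Col1a1 on 5 arrays and the other 8 on none, among them Col1a2, Col3a1, Pdgfrb and Dcn. Their summed deposited signal was 3989.4 to 5389.9 with LF3, 5292.9 to 6163.2 with ICG-001 and 7509 to 9167 with DMSO. That sum follows Vim, which fell by 0.69 under LF3 and by 0.49 under ICG-001 (adjusted p = 0.00134 and 0.00509). Pdgfra (-0.18 and -0.15) and Twist1 (0.06 and 0.01) passed under neither, and Col1a1 passed as lower under ICG-001 (adjusted p = 0.000307). The 9 ductal markers summed to 3415.5 to 4537.7 with LF3, 3196.4 to 3871.1 with ICG-001 and 6311.6 to 8287.8 with DMSO. That sum follows Wfdc2, which fell by 0.71 under LF3 and by 0.94 under ICG-001 (adjusted p = 0.00142 and 5.37e-05), whereas Cldn7 rose by 0.53 under LF3 (adjusted p = 0.0494) and Krt8 passed under neither. Cldn7 was detected on 5 of the 9 arrays, and its means of 5.28 with ICG-001 and 5.23 with DMSO (log2) were near the lowest detected values. The 7 macrophage and leukocyte markers summed to 516.2 to 551.5 with LF3, 691.9 to 725.5 with ICG-001 and 562.1 to 668.8 with DMSO. Of these, Ptprc, Adgre1, Itgam and Cd3e were detected on no array. Cd14 and Cd74 passed as higher under ICG-001 (limma adjusted p = 0.0025 and 1.06e-05), whereas Lyz2 passed under neither compound (0.0621 for LF3 and 0.85 for ICG-001). Cd14 was detected on all 9 arrays but Cd74 on 3, with means of 4.81 with LF3, 5.60 with ICG-001 and 4.45 with DMSO (log2). The LF3 and DMSO means of Cd74 lay under the lowest detected value of every array, so its rise is limited by signal. The part of these shifts in the values of Inhba, Grem1, Fst and Id2 was not tested.

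For each gene that passed in at least 1 comparison, the 2 genes with the most similar normalized log2 values over the 9 arrays were found among the 7353 other tested genes. They were Gcnt2 (r = 0.978) and Il4i1 (0.975) for Inhba, and Rpl35a (0.993) and Cox18 (0.987) for Grem1. For Fst they were Pus7 (0.975) and Pcolce2 (0.971), and for Id2 Hdac5 (0.994) and F2r (0.991). Hdac5 averaged 9.71 with LF3, 8.99 with ICG-001 and 10.34 with DMSO (log2), so its group means stood in the order of those of Id2. These r values are over arrays of 3 groups that differ in level, which all the genes share, and they are given as a description.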

How the data were processed

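Total RNA of 9 samples in 3 groups of 3 was measured on Illumina mouse bead arrays, and the submitters' processing notes name GenomeStudio 2010.1. Per the file headers, the main deposited table gives for each probe and array a signal intensity, linear and not normalized between arrays, and a detection p-value. The authors' processed intensities, deposited separately, look background-subtracted and quantile-normalized; how they were made is not given in the sources used here, and they served as an alternative. Gene symbols came from the platform's table: of 25697 probes, 23978 had 1 symbol, 0 several and 1719 none.

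Intensities were background-corrected by normexp with the detection p-values, given an offset of 16, put on the log2 scale and quantile-normalized (limma 3.58.1, R 4.3.3). The 10830 probes that 3 or more of the 9 arrays detected (detection p-value under 0.01) were kept, and the brightest probe stood for a gene. All 9 arrays entered 1 lmFit and eBayes fit for 3 comparisons. P-values were two-sided, Benjamini-Hochberg adjusted over all kept probes, and a gene passed under 0.05. In all, 1645, 2773 and 2923 genes passed for LF3 minus DMSO, ICG-001 minus DMSO and LF3 minus ICG-001. The median standard error was 0.135. Precision is limited by the number of arrays. A probe detected on no array of a group has only a bound there, and its fold, on this background-corrected scale, is "at least" that against the lowest detected signal. The fit was checked on simulated data.

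All 10 genes were described; from each pathway list, up to 3 passing genes with the lowest adjusted p were named in each comparison with DMSO. The 10 genes and all lists were chosen with earlier results of these data known. Alternatives changed background, offset, normalization, filter, probe summary, fit and replicates.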

Additional observations from a re-analysis of the deposited data

How the results depend on the processing

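Beside the reported setting, 21 alternatives were run, 9 that left out 1 array each and 12 others. Of 312 values for the 15 combinations of a measured gene and a comparison, 301 kept their direction, where called, and their side of the threshold; the other 11 were the Fst and Inhba values given above. The measured genes that passed numbered 2 to 3 for LF3 minus DMSO, 3 to 4 for ICG-001 minus DMSO and 2 to 4 for LF3 minus ICG-001 over all settings. Over all genes, LF3 minus DMSO had 1645 calls, with 872 to 1877 when 1 array was left out: 872 without DMSO replicate 2, 923 without DMSO replicate 3 and 1019 without LF3 replicate 2. Median scaling shifted the median of all genes by -0.24, -0.10 and -0.14 and split the calls into 203 higher and 2140 lower for LF3 minus DMSO, 832 and 1554 for ICG-001 minus DMSO, and 733 and 1942 for LF3 minus ICG-001. With the replicate number as a block, 1464, 2645 and 2797 genes and 3, 4 and 3 of the 5 measured genes passed. Arrays with the same number did not deviate together more than other pairs did (r from -0.23 to 0.14 over 9 pairs, against -0.22 to 0.34 over 18 other pairs). In 0 of 9 cases were an array's 2 closest arrays of the other groups both of its own number. LF3 replicate 1 and ICG-001 replicate 1 were each other's closest (r = 0.14), and LF3 replicate 3 was closest to DMSO replicate 3 (0.14). The pathway counts were alternatives chosen after seeing the data. LF3 minus ICG-001 had 13 pathway calls beside 2923 over all genes, and 8 without LF3 replicate 1, ICG-001 replicate 2 or ICG-001 replicate 3. Calls over all genes in those 3 settings also fell, to 2480, 2250 and 2346. With array weights the LF3 minus DMSO pathway calls numbered 15 of 42, beside 2205 of all 7354 genes. Grem1 could not be tested under detection on all 9 arrays, and a slide block was not run because the headers name no slide. Levels near background, those of Inhbb, Bmp2, Bmp4 and Id3, are limited by signal.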
